A study of Homo sapiens with 18 samples.

Results

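The 10 genes described here are of 2 kinds. NFKBIA, TNFAIP3, NFKB1, NFKB2, RELB, BIRC3, ICAM1 and CXCL8 are 8 textbook targets of the transcription factor NF-kB. UBD and CXCR4 are 2 further genes that were chosen by their values in these libraries, because their change in recovery from heat shock depended on siLonp1. All were taken by symbol from the 26485 gene symbols of the count table, and all 10 were among the 12832 genes that passed the filter on low counts. SW620 cells, an established human colon cancer line, had been transfected with siRNA against Lonp1 (siLonp1), the mitochondrial protease and chaperone encoded by LONP1, or with a scramble siRNA. Each arm was kept at 37 °C (Ctrl scramble, Ctrl siLonp1), held at 42 °C for 1 h (HS scramble, HS siLonp1), or held at 42 °C for 1 h and returned to 37 °C for another 1 h (HS+REC scramble, HS+REC siLonp1). Each of these 6 groups had 3 libraries, which the methods describe as independent biological replicates of a single cell line. Cells of every group had received an siRNA, and which siRNA against Lonp1 was used for RNAseq is not given in the sources used here. The design asked how heat shock and recovery change expression, and how siLonp1 alters those changes.

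NF-kB is a family of dimeric transcription factors that is held in the cytoplasm by inhibitor proteins until a signal, such as a cytokine receptor or a cell stress, leads to their degradation. Its dimers then bind short kB sites near target genes, among them genes for its own inhibitors and subunits, so the pathway limits and renews itself through its targets. In colon epithelium it is best known for driving chemokines, adhesion molecules and inhibitors of cell death in inflammation.

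Library totals lay between 30815860 and 47279297 counts, and the biological coefficient of variation shared by the genes was 0.0658. LONP1 served as the check of the siRNA labels. Its level, in TMM-scaled CPM (read counts relative to the library size, corrected for composition), lay between 197 and 233 in the 9 scramble libraries and between 11.5 and 28.9 in the 9 siLonp1 libraries. The knockdown differed between conditions, at 10.8-fold in Ctrl, 18.3-fold in HS and 8.03-fold in HS+REC, and the LONP1 interactions of siLonp1 with HS (log2 -0.76, FDR 0.000468 by edgeR's quasi-likelihood test) and with HS+REC (0.43, FDR 0.0321) passed the limit. The part of this in the comparisons of siLonp1 across conditions was not tested. Of 10 markers of colon epithelium, 8 were at 1 CPM or more, and their summed level was between 8760.7 and 12134 CPM, while CDX1 was at 0 counts. Markers of leukocytes summed to between 16.6 and 23.0 CPM, of which CD68 and LYZ were detected above 1 CPM and MS4A1 was at 0 counts. Endothelial markers summed to at most 1.53 CPM, with KDR at 0 counts. Of 6 fibroblast markers, COL1A1, LUM and PDGFRB were above 1 CPM and COL3A1 was at 0 counts. Their sum differed between the arms, at 41.3 to 47.2 CPM in Ctrl scramble and 23.5 to 25.0 CPM in Ctrl siLonp1, 42.3 to 46.1 and 26.3 to 30.6 CPM in HS, and 61.6 to 63.1 and 47.2 to 48.7 CPM in HS+REC. Their part in the siLonp1 differences given here was not tested. In bulk RNA of this kind, fewer cells that express a gene and less RNA per cell cannot be told apart.

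The stretches shown next lie upstream of 1 RefSeq transcription start for each of 6 of the genes, and they are shown because kB sites are the feature that the name NF-kB target refers to. They were read from RefSeq promoter windows (GRCh38.p14, 250 bases before the start), which were found for 9 of the 10 genes. The capitals mark matches to the kB consensus or to GGANNTTCC, a shorter form of a kB site, on either strand. In CXCR4, where neither was present, they mark GAANNTTC, the inverted pair of units of which heat shock elements are built. These motifs were chosen after the windows had been seen. The CXCR4 stretch lies wholly, and the TNFAIP3 stretch in part, within the gene span that GENCODE gives, which begins farther upstream than the RefSeq start.
CXCL8 (chr4:73740458-73740506, plus strand): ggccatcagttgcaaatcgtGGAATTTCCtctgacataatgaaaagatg
UBD (chr6:29559756-29559805, minus strand): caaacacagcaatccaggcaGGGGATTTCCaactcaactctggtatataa
TNFAIP3 (chr6:137867172-137867233, plus strand): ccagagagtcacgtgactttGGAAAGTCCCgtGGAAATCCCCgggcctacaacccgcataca
BIRC3 (chr11:102317265-102317378, plus strand): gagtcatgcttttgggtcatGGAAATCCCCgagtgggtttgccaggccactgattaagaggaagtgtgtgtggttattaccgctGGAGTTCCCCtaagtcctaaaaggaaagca
ICAM1 (chr19:10270914-10270962, plus strand): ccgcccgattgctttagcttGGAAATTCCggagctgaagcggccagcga
CXCR4 (chr2:136118150-136118177, minus strand): taaaagtccggccgcggccaGAAACTTC

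In what follows a gene counted if any of its windows held a match, and NFKB2 had more than a single window. The percentages are of windows, so the units differ. The kB consensus was present in the windows of 6 of the 9 genes (NFKBIA, TNFAIP3, NFKB1, NFKB2, BIRC3 and UBD) and in 9.96% of all 35116 windows. GGANNTTCC, which overlaps the consensus in part, was present in 6 of the 9 (NFKBIA, TNFAIP3, NFKB1, NFKB2, ICAM1 and CXCL8) and in 3.84% of windows. GAANNTTC was present in UBD and CXCR4 and in 5.78% of windows, and TTCNNGAA in none of the 9 and in 6.62%. UBD shared the run GGGGATTTCCA with TNFAIP3 and BIRC3, where it stands as its reverse complement TGGAAATCCCC, and 13 of the 35116 windows (0.037%) hold it. The run was found by a search of these windows for the longest one shared by at least 3 of the genes. Its sharing was thus fixed by the search, and the 13 windows include those of UBD, TNFAIP3 and BIRC3. It also contains kB matches already counted above. Such matches describe letters in a window, and binding was not measured in these data. UBD (chr6:29555515-29559732, minus strand, GENCODE v44 on hg38) overlaps GABBR1 on the same strand and OR2I1P on the other. TNFAIP3, BIRC3 and ICAM1 overlap genes of the opposite strand, and the strand setting of the counting is not given in the sources used here.

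**Figure D1:**
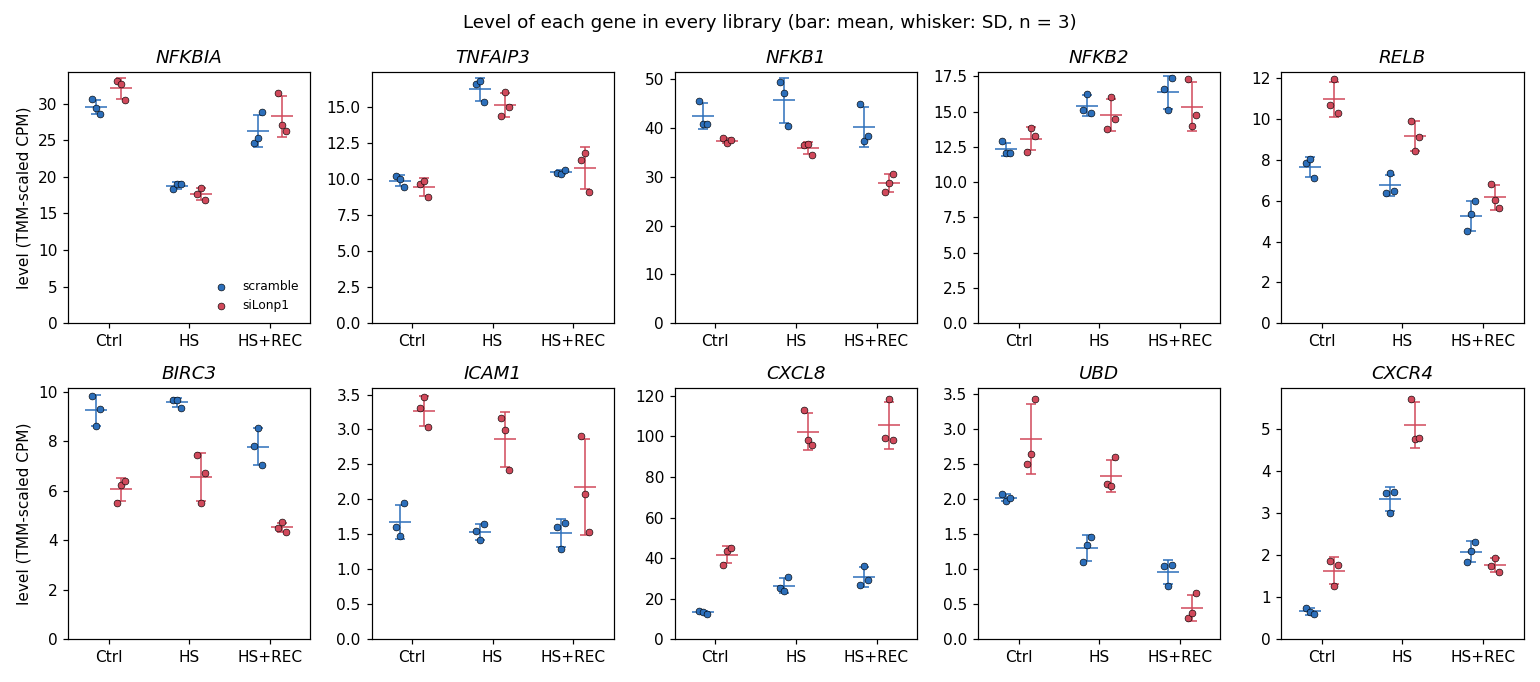
Level of each of the 10 genes in TMM-scaled CPM (vertical axis, from 0) in Ctrl, HS and HS+REC, with 1 point per library, scramble in blue and siLonp1 in red, and bars for the mean and SD of 3 libraries. CXCL8 lay between 12.7 and 13.7 CPM in Ctrl scramble and between 98.3 and 118 CPM in HS+REC siLonp1, and UBD was lowest in HS+REC siLonp1, at 0.309 to 0.665 CPM.

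NFKBIA and TNFAIP3 encode inhibitors of the pathway, and after 1 h of heat they went in opposite directions. NFKBIA (chr14:35401079-35404749) encodes IkB-alpha, which holds NF-kB dimers in the cytoplasm. Its level was 30.6, 29.5 and 28.6 CPM in Ctrl scramble, against 18.3, 19.1 and 19.1 CPM in HS scramble and 24.7, 25.4 and 28.8 CPM in HS+REC scramble. In siLonp1 it was 33.1, 32.7 and 30.5 CPM in Ctrl, 17.6, 18.5 and 16.8 CPM in HS, and 31.5, 27.0 and 26.3 CPM in HS+REC. All 6 HS libraries therefore lay below the other 12, and the recovery libraries lay between them and the controls or overlapped the controls. NFKBIA fell with HS by 0.65 on the log2 scale in scramble (SE 0.08, FDR 2.9e-07 by edgeR's quasi-likelihood test with Benjamini-Hochberg adjustment over all genes tested, as for every FDR given) and by 0.86 in siLonp1 (SE 0.08, FDR 2.34e-09). From HS to HS+REC it rose by 0.48 log2 units in scramble (FDR 2.95e-05) and by 0.68 in siLonp1 (FDR 2.02e-07).

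TNFAIP3 (chr6:137867214-137883314) encodes A20, a ubiquitin-editing enzyme that ends signalling from cytokine receptors. Its level was 10.2, 9.97 and 9.44 CPM in Ctrl scramble, against 16.6, 16.8 and 15.3 CPM in HS scramble and 10.4, 10.3 and 10.6 CPM in HS+REC scramble. The siLonp1 libraries were at 9.67, 9.86 and 8.71 CPM in Ctrl, 14.4, 16.0 and 14.9 CPM in HS, and 11.3, 11.8 and 9.10 CPM in HS+REC. The 6 HS libraries lay above all others, and the gene was back near its control level after recovery. TNFAIP3 rose with HS by 0.72 log2 units in scramble (SE 0.09, FDR 4.99e-07) and 0.68 in siLonp1 (SE 0.09, FDR 9.27e-07), and then fell between HS and HS+REC by 0.63 (FDR 4.69e-06) and 0.49 (FDR 9.48e-05). Neither inhibitor differed past the limit between siLonp1 and scramble in any condition. For NFKBIA the 95% intervals of that log2 difference were -0.03 to 0.27 in Ctrl, -0.26 to 0.07 in HS and -0.05 to 0.26 in HS+REC, and for TNFAIP3 they were -0.25 to 0.12, -0.28 to 0.07 and -0.14 to 0.22.

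NFKB1, NFKB2 and RELB encode subunits of the dimers, and each had a pattern of its own. NFKB1 (chr4:102501330-102617302), the gene of p105 and its product p50, stood at 45.5, 40.8 and 40.9 CPM in Ctrl scramble and 38.0, 36.9 and 37.5 CPM in Ctrl siLonp1. After heat it was at 49.5, 47.1 and 40.5 CPM in HS scramble and 36.5, 36.7 and 34.5 CPM in HS siLonp1. In recovery it was at 44.9, 37.4 and 38.3 CPM in HS+REC scramble and 26.9, 28.8 and 30.6 CPM in HS+REC siLonp1. Every siLonp1 library lay below every scramble library of its condition. The difference with siLonp1 passed the limit in HS (-0.35 log2, SE 0.08, FDR 0.000627) and in HS+REC (-0.48, SE 0.08, FDR 2.04e-05), and missed it in Ctrl (-0.18, SE 0.08, FDR 0.0592).

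RELB (chr19:45001461-45038192), the transcriptional partner of p52 in the non-canonical pathway, moved the other way with siLonp1. It was at 7.83, 8.04 and 7.11 CPM in Ctrl scramble against 10.7, 11.9 and 10.3 CPM in Ctrl siLonp1, and at 6.40, 7.36 and 6.48 CPM in HS scramble against 9.91, 8.44 and 9.14 CPM in HS siLonp1. In HS+REC the arms overlapped, with 4.51, 5.34 and 5.97 CPM in scramble and 6.83, 6.03 and 5.62 CPM in siLonp1. RELB rose with siLonp1 by 0.52 log2 units in Ctrl (SE 0.10, FDR 0.000226) and by 0.44 in HS (SE 0.11, FDR 0.00129), and the value in HS+REC was 0.22 (95% interval -0.0062 to 0.45, FDR 0.0933). It fell in HS+REC against Ctrl by 0.54 in scramble (FDR 0.000295) and by 0.83 in siLonp1 (FDR 5.34e-07). NFKB2 (chr10:102394110-102402524), the gene of p100 and p52, varied least of the 10, with a highest group mean 1.33 times the lowest and all libraries between 12.0 and 17.4 CPM. It rose with HS in scramble by 0.33 log2 units (SE 0.09, FDR 0.00508) and in HS+REC scramble by 0.41 (SE 0.09, FDR 0.000474).

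BIRC3, ICAM1 and CXCL8 are effector targets, and each differed with siLonp1. BIRC3 (chr11:102317484-102339403) encodes cIAP2, a ubiquitin ligase that restrains cell death. It was at 9.85, 8.61 and 9.30 CPM in Ctrl scramble and 5.52, 6.25 and 6.41 CPM in Ctrl siLonp1, at 9.69, 9.68 and 9.36 CPM in HS scramble and 7.44, 5.52 and 6.72 CPM in HS siLonp1. In HS+REC it was at 7.81, 8.52 and 7.04 CPM in scramble and 4.50, 4.73 and 4.35 CPM in siLonp1. The arms did not overlap in any condition. BIRC3 fell with siLonp1 by 0.61 log2 units in Ctrl (SE 0.10, FDR 3.61e-05), by 0.55 in HS (SE 0.10, FDR 1e-04) and by 0.78 in HS+REC (SE 0.11, FDR 2.07e-06).

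ICAM1 (chr19:10271093-10286615) encodes an adhesion molecule that leukocytes bind, and it had few counts, so each library's count is given. The counts were 66, 70 and 81 in Ctrl scramble and 130, 140 and 119 in Ctrl siLonp1, 69, 64 and 52 in HS scramble and 123, 114 and 96 in HS siLonp1, and 69, 52 and 78 in HS+REC scramble and 122, 82 and 60 in HS+REC siLonp1. The arms were apart in Ctrl and HS and overlapped in HS+REC. ICAM1 rose with siLonp1 by 0.97 log2 units in Ctrl (SE 0.18, FDR 0.000102) and 0.90 in HS (SE 0.19, FDR 0.000299). In HS+REC the rise was 0.52 (SE 0.19, FDR 0.0243), and it rested on single libraries: it was 0.24 without HS+REC siLonp1 replicate 1 (FDR 0.294) and 0.42 without HS+REC scramble replicate 2 (FDR 0.1), and with only those groups in the fit it was 0.52 (FDR 0.0743).

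CXCL8 (chr4:73740519-73743716) encodes interleukin-8, a chemokine that draws neutrophils, and it rose with heat and with siLonp1. It was at 13.7, 13.7 and 12.7 CPM in Ctrl scramble and 36.8, 43.4 and 45.1 CPM in Ctrl siLonp1. After heat it was at 25.1, 23.7 and 30.5 CPM in HS scramble and 113, 98.3 and 95.7 CPM in HS siLonp1. In HS+REC it was at 26.6, 36.3 and 29.3 CPM in scramble and 99.1, 118 and 98.3 CPM in siLonp1. Each siLonp1 library of each condition lay above all 9 scramble libraries, and Ctrl siLonp1 without heat lay above HS scramble. The highest group mean was 7.86 times the lowest. CXCL8 was raised with siLonp1 by 3.12-fold in Ctrl (log2 1.64, SE 0.11, FDR 7.7e-11), by 3.88-fold in HS (log2 1.96, SE 0.11, FDR 1.78e-12) and by 3.42-fold in HS+REC (log2 1.78, SE 0.11, FDR 6.27e-12). With HS it rose by 0.98 log2 units in scramble (SE 0.12, FDR 4.1e-07) and 1.29 in siLonp1 (SE 0.11, FDR 7.46e-10), and it stayed raised in HS+REC, by 1.20 (FDR 9.4e-09) and 1.33 (FDR 2.91e-10) against Ctrl. Between HS and HS+REC its 95% intervals were -0.0045 to 0.45 in scramble (FDR 0.145) and -0.17 to 0.25 in siLonp1 (FDR 0.803).

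UBD (chr6:29555515-29559732) encodes FAT10, a ubiquitin-like protein that marks proteins for the proteasome and is induced by tumour necrosis factor and interferon gamma. Its counts were 85, 94 and 84 in Ctrl scramble and 98, 107 and 134 in Ctrl siLonp1, 49, 61 and 46 in HS scramble and 86, 83 and 103 in HS siLonp1, and 45, 31 and 50 in HS+REC scramble and 13, 15 and 26 in HS+REC siLonp1. In Ctrl and HS every siLonp1 library was above every scramble library in CPM, and in HS+REC every siLonp1 library was below. Mean levels were 2.02 ± 0.04, 1.30 ± 0.18 and 0.959 ± 0.168 CPM in Ctrl, HS and HS+REC scramble, and 2.85 ± 0.50, 2.33 ± 0.23 and 0.452 ± 0.188 CPM in siLonp1 (SD, n = 3 each). The order from Ctrl siLonp1 down through HS siLonp1, Ctrl scramble, HS scramble and HS+REC scramble to HS+REC siLonp1 held group by group, with overlapping libraries only between the first pair. UBD was above 1 CPM in 14 of the 18 libraries, in 2 of the 3 HS+REC scramble libraries and in 0 of the 3 HS+REC siLonp1 libraries.

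UBD was chosen on how its siLonp1 difference changed in recovery, which draws on all 6 groups, so all its values are a description without a test. The log2 difference of siLonp1 from scramble in HS+REC was -1.10, or 2.14-fold lower, with an SE of 0.26. From HS to HS+REC the log2 difference was -0.42 in scramble and -2.37 in siLonp1, and against Ctrl it was -1.06 and -2.66. The log2 difference of HS from Ctrl was -0.64 in scramble (SE 0.19) and -0.29 in siLonp1 (SE 0.17), and the latter was -0.14 without Ctrl siLonp1 replicate 3. The siLonp1 difference was 0.85 in HS (SE 0.19) and 0.50 in Ctrl (SE 0.17), and without that same library the Ctrl value was 0.35. GABBR1, which overlaps UBD, had 69 to 157 counts per library, and its siLonp1 difference in HS+REC was 0.46 log2 units (FDR 0.018), opposite in sign to that of UBD. Its differences in Ctrl (0.23) and HS (0.66) had the sign of those of UBD, and the part of shared reads in either gene was not tested.

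CXCR4 (chr2:136114349-136119177) encodes the receptor of the chemokine CXCL12, which guides cell migration and has been linked to the spread of colon cancer. Its counts were 31, 31 and 25 in Ctrl scramble and 73, 51 and 69 in Ctrl siLonp1, 154, 136 and 111 in HS scramble and 222, 181 and 190 in HS siLonp1, and 79, 85 and 109 in HS+REC scramble and 73, 76 and 63 in HS+REC siLonp1. It was highest in HS in both arms and lowest in Ctrl scramble, where no library exceeded 1 CPM. Mean levels were 0.669 ± 0.078, 3.33 ± 0.28 and 2.09 ± 0.24 CPM in Ctrl, HS and HS+REC scramble, and 1.63 ± 0.32, 5.09 ± 0.54 and 1.76 ± 0.16 CPM in siLonp1 (SD, n = 3 each). HS siLonp1 and then HS scramble lay above all other groups, whereas the libraries of HS+REC scramble, HS+REC siLonp1 and Ctrl siLonp1 overlapped from one group to the next.

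CXCR4 was chosen in the same way, and its values too are a description without a test. HS libraries were 4.95-fold above Ctrl in scramble (log2 2.31, SE 0.17) and 3.13-fold in siLonp1 (log2 1.64, SE 0.15). The Ctrl libraries of these values also entered the choice of the gene, so they are not ranked against the other genes. The siLonp1 libraries were 2.42-fold above scramble in Ctrl (log2 1.28, SE 0.19) and 1.53-fold in HS (log2 0.62, SE 0.13), with no overlap. In HS+REC scramble it stood 1.64 log2 units above Ctrl scramble, with no overlap, whereas HS+REC siLonp1 stood 0.12 above Ctrl siLonp1, with overlap, and at -0.04 from it without Ctrl siLonp1 replicate 2. From HS to HS+REC the log2 difference was -0.67 in scramble and -1.53 in siLonp1, and the siLonp1 difference in HS+REC was -0.25, with overlapping libraries. With each library left out in turn, that siLonp1 difference lay between -0.33 and -0.16. The HS comparisons and the siLonp1 comparisons share groups, so that a high or low Ctrl siLonp1 level enters several of these values.

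The genes whose profile over the 6 group means of log2 CPM lay closest to that of UBD were OAS2 (root mean square difference 0.31 log2 units), ARHGAP29 (0.36) and CISH (0.44). OAS2, an interferon-induced synthetase of the antiviral response, was at 6.78 and 8.21 CPM in Ctrl scramble and siLonp1, 4.92 and 5.71 CPM in HS, and 2.81 and 2.22 CPM in HS+REC. It thus shared with UBD the higher siLonp1 mean in Ctrl and HS and the lower one in HS+REC. Closest to CXCR4 were MEX3B (0.28), SIX4 (0.33) and NOCT (0.34). MEX3B, the gene of an RNA-binding protein, was at 0.599 and 1.08 CPM in Ctrl, 2.86 and 3.70 CPM in HS, and 2.30 and 2.04 CPM in HS+REC. SIX4 (17.33 and 20.01 CPM) and NOCT (17.7 and 26.9 CPM) had the higher mean in siLonp1 in HS+REC, unlike CXCR4. These likenesses rest on 6 means that the genes share, and they were not tested.

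The 8 NF-kB targets, counted here without UBD and CXCR4, did not move as a group with HS, since in each arm some rose and others fell. In scramble, 3 of the 8 rose with HS (TNFAIP3, NFKB2 and CXCL8), beside 18.6% of all genes tested, and 1 fell (NFKBIA), beside 17.3%. In siLonp1, 2 rose (TNFAIP3 and CXCL8), beside 20.2%, and 2 fell (NFKBIA and RELB), beside 22.1%. The median log2 change of the 8 was 0.08 in scramble and 0.03 in siLonp1, with -0.01 and 0.00 over all genes tested. The fall of RELB in HS siLonp1 (-0.26, FDR 0.0431) missed the limit in 6 of 12 refits with another scaling, filter, tool, block or set of libraries, among them without Ctrl siLonp1 replicate 1 (-0.28, FDR 0.0651) or 2 (-0.19, FDR 0.189) and without HS siLonp1 replicate 2 (-0.20, FDR 0.17) or 3 (-0.26, FDR 0.0926). The other HS changes of the 8 kept their calls in all 12 refits, while with a fold change above 2 as a further limit 0 remained in scramble and 1, CXCL8, in siLonp1.

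After recovery, against Ctrl, 2 of the 8 rose in scramble (NFKB2 and CXCL8), beside 21.8% of all genes, and 2 fell (RELB and BIRC3), beside 20.5%. In siLonp1 the same 2 genes rose, beside 24.6%, and 5 fell (NFKBIA, NFKB1, RELB, BIRC3 and ICAM1), beside 26.6%. The median of the 8 was -0.11 in scramble and -0.28 in siLonp1, and that of all genes was 0.00 in each. Among the falls in siLonp1, NFKB1 was lower by 0.38 (SE 0.08, FDR 0.000308), ICAM1 by 0.58 (SE 0.17, FDR 0.00715) and BIRC3 by 0.42 (SE 0.11, FDR 0.00262), with every HS+REC library below every Ctrl library. That of ICAM1 was -0.39 without HS+REC siLonp1 replicate 3 (FDR 0.061). The values of NFKBIA (-0.18, FDR 0.0421) and NFKB2 (0.23, FDR 0.031) in siLonp1 and of BIRC3 in scramble (-0.25, FDR 0.0465) were close to the limit and missed it in 8, 5 and 7 of 12 refits. For NFKBIA these were RLE scaling, DESeq2, the replicate block, the fit of only the groups compared, and leaving out Ctrl siLonp1 replicate 1 or 2 or HS+REC siLonp1 replicate 2 or 3 (-0.16, -0.17, -0.15 and -0.13). For NFKB2 they were keeping genes of low counts (0.21), scaling by library size alone (0.15), and leaving out Ctrl siLonp1 replicate 1 or 3 or HS+REC siLonp1 replicate 1 (0.18, 0.24 and 0.14), and for BIRC3 keeping those genes, the replicate block, only the groups compared (-0.25, -0.25 and -0.24), and leaving out Ctrl scramble replicate 1 or 3 or HS+REC scramble replicate 1 or 3 (-0.20, -0.24, -0.25 and -0.18).

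**Figure D2:**
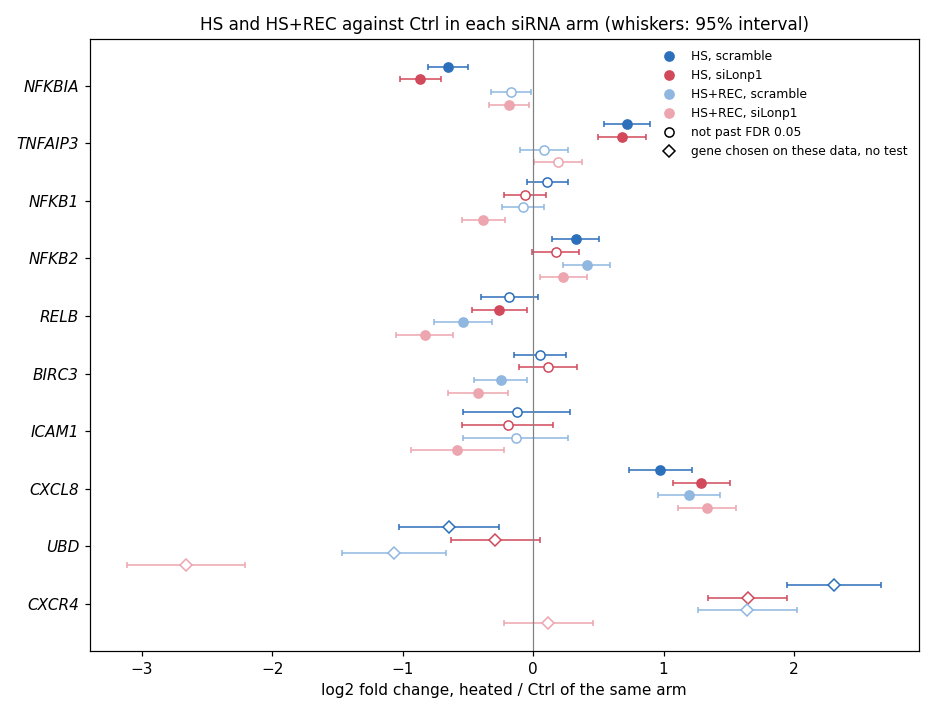
Log2 fold change of HS and of HS+REC against Ctrl of the same siRNA arm (horizontal axis) for the 10 genes, with 95% intervals as whiskers, filled circles past an FDR of 0.05, open circles not past it, and open diamonds for UBD and CXCR4, which were chosen on these libraries and not tested. CXCR4 lay at 2.31 in HS scramble and 1.64 in HS siLonp1, NFKBIA lay below 0 in HS in both arms (-0.65 and -0.86), and UBD in HS+REC siLonp1 lay at -2.66.

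Between HS and HS+REC, the inhibitors moved back towards control levels. NFKBIA was the 1 gene of the 8 that rose, in scramble beside 14.2% of all genes and in siLonp1 beside 16.3%. In scramble 3 fell (TNFAIP3, RELB and BIRC3), beside 12.7%, and in siLonp1 4 fell (those and NFKB1), beside 15.6%. The median of the 8 was -0.10 in scramble and -0.35 in siLonp1, with 0.01 and -0.01 over all genes. RELB fell between HS and HS+REC by 0.36 in scramble (SE 0.11, FDR 0.0179) and 0.57 in siLonp1 (SE 0.11, FDR 0.000177), BIRC3 by 0.30 (SE 0.10, FDR 0.026) and 0.54 (SE 0.11, FDR 0.000459), and NFKB1 in siLonp1 by 0.32 (SE 0.08, FDR 0.00286). The scramble value of RELB was -0.29 without HS scramble replicate 2 (FDR 0.114) and -0.26 without HS+REC scramble replicate 1 (FDR 0.113). That of BIRC3 missed the limit without HS scramble replicate 1 or 2 or HS+REC scramble replicate 1 or 3 (-0.29, -0.29, -0.30 and -0.23). The number of the 8 past the limit in scramble was 4, and it was 2 without HS scramble replicate 2 and 6 without HS scramble replicate 3, the library with the lowest total.

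With siLonp1 the named targets split. In Ctrl, 3 of the 8 rose (RELB, ICAM1 and CXCL8), beside 26.3% of all genes, and 1 fell (BIRC3), beside 22.9%. In HS the same 3 rose, beside 28.1%, and 2 fell (NFKB1 and BIRC3), beside 26.7%. In HS+REC, 2 rose (ICAM1 and CXCL8), beside 26.8%, and 2 fell (NFKB1 and BIRC3), beside 27.3%. The median log2 difference of the 8 was 0.10 in Ctrl, -0.08 in HS and, after recovery, 0.07, against 0.01, 0.00 and 0.00 over all genes tested. BIRC3 and CXCL8 passed in all 3 conditions in opposite directions. With 26.7% to 28.1% of all genes past the limit in each direction in HS and in HS+REC, these counts describe the genes and do not set them apart. NFKBIA, TNFAIP3 and NFKB2 passed in none of the 3 conditions.

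**Figure D3:**
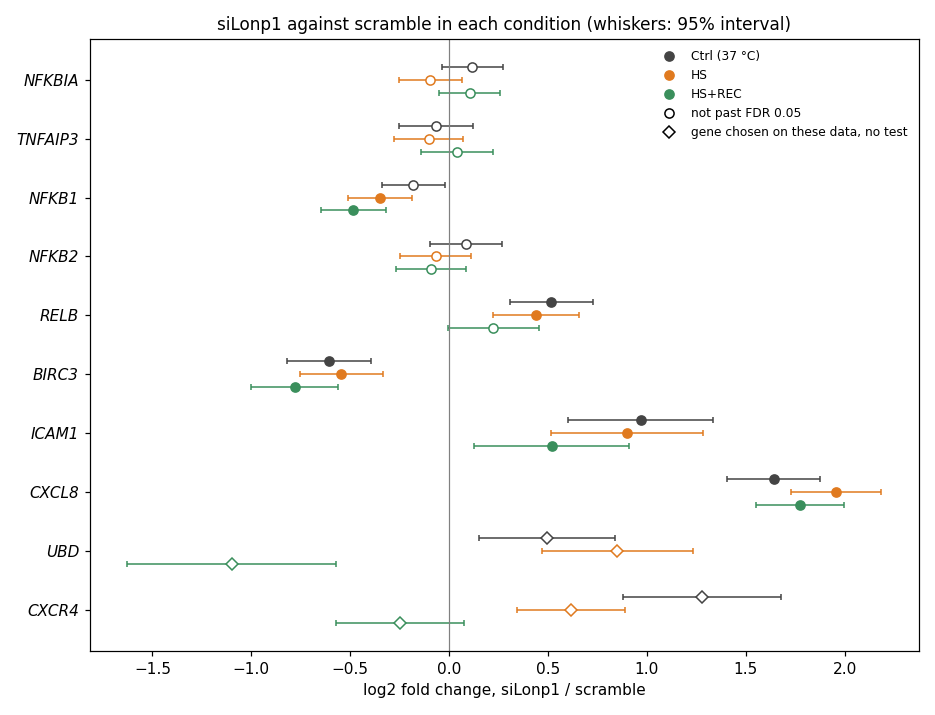
Log2 fold change of siLonp1 against scramble (horizontal axis) in Ctrl, HS and HS+REC for the 10 genes, with 95% intervals as whiskers, filled circles past an FDR of 0.05, open circles not past it, and open diamonds for UBD and CXCR4, which were chosen on these libraries and not tested. CXCL8 lay at 1.64, 1.96 and 1.78 and BIRC3 at -0.61, -0.55 and -0.78, while UBD changed from 0.50 and 0.85 in Ctrl and HS to -1.10 in HS+REC.

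Whether siLonp1 altered the heat changes was tested as an interaction, the siLonp1 arm's change minus the scramble arm's change. For HS, 0 of the 8 passed in either direction, beside 0.475% of all genes upward and 1.39% downward. For HS+REC, 0 of the 8 passed, beside 0.686% and 0.896%. At an unadjusted p under 0.05, edgeR's quasi-likelihood test gave 0 genes for HS and 1 for HS+REC, and DESeq2 gave 1 and 1, with 0 past its adjusted limit in either. The gene that edgeR gave for HS+REC was NFKB1, at -0.30 (95% interval -0.53 to -0.07, FDR 0.195). The interval of CXCL8 was -0.0074 to 0.64 for HS and -0.19 to 0.46 for HS+REC, and that of ICAM1, with few counts, was as wide as -0.99 to 0.09 for HS+REC. For UBD and CXCR4 the HS+REC interactions, which are the values behind their choice, were -1.60 (SE 0.30) and -1.53 (SE 0.25), and their HS interactions were 0.35 (SE 0.25) and -0.66 (SE 0.24).

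The rest of the pathway was followed in a list of 39 signalling genes (receptors, adaptors, kinases, inhibitors and the remaining subunits), of which 37 were tested. With HS in scramble 6 rose (16.2%, beside 18.6% of all genes) and 6 fell (16.2%, beside 17.3%), and in siLonp1 8 rose (21.6%, beside 20.2%) and 14 fell (37.8%, beside 22.1%). The largest rises were those of BCL3, a nuclear IkB protein that binds p50 and p52 (1.32 log2 units in scramble, FDR 5.98e-08, and 1.41 in siLonp1, FDR 7.63e-09), NFKBIZ, another nuclear IkB protein (1.24 in scramble, FDR 5.87e-05, and 0.64 in siLonp1, FDR 0.0268), and NFKBIE, the gene of IkB-epsilon (0.85, FDR 3.22e-06, and 0.79, FDR 5.24e-06). NFKBIA fell in the same comparisons. NFKBIZ had few counts, from 32 in HS+REC siLonp1 to 135 in HS scramble. Of the other IkB genes of the list, NFKBIB was at 0.24 in scramble (FDR 0.0543) and rose by 0.25 in siLonp1 (FDR 0.0406), and NFKBID was at -0.32 in scramble (FDR 0.117) and fell by 0.45 in siLonp1 (FDR 0.0414). TNFRSF1B, the gene of the second receptor of tumour necrosis factor, fell with HS by 0.72 in scramble (FDR 6.68e-09) and 1.19 in siLonp1 (FDR 1.38e-12). In HS+REC against Ctrl 10 rose (27.0%, beside 21.8%) and 6 fell (16.2%, beside 20.5%) in scramble, and 8 rose (21.6%, beside 24.6%) and 12 fell (32.4%, beside 26.6%) in siLonp1. RIPK1, the kinase at that factor's first receptor, fell by 0.78 in scramble (FDR 6.71e-08) and 1.01 in siLonp1 (FDR 6.77e-10), whereas the adaptor genes TRAF2 (0.83, FDR 2.31e-08, and 0.57, FDR 5.34e-06) and TRAF6 (0.68, FDR 1.13e-07, and 0.73, FDR 2.36e-08) rose in both arms. Between HS and HS+REC 6 rose (16.2%, beside 14.2%) and 7 fell (18.9%, beside 12.7%) in scramble, and 8 rose (21.6%, beside 16.3%) and 8 fell (21.6%, beside 15.6%) in siLonp1. BCL3 fell there by 0.95 (FDR 7.19e-06) and 1.27 (FDR 5.57e-08). The list's median log2 change lay between -0.08 and 0.03 in these 6 comparisons, and that of all genes between -0.01 and 0.01.

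With siLonp1, 13 of the 37 signalling genes rose (35.1%, beside 26.3% of all genes) and 5 fell (13.5%, beside 22.9%) in Ctrl. In HS 9 rose (24.3%, beside 28.1%) and 14 fell (37.8%, beside 26.7%), and in HS+REC 10 rose (27.0%, beside 26.8%) and 11 fell (29.7%, beside 27.3%). BTRC, the gene of the ligase adaptor that marks IkB for degradation, rose by 0.69 (FDR 6.81e-07), 0.73 (FDR 4.09e-07) and 0.74 (FDR 1.85e-07). TLR4, the receptor of bacterial lipopolysaccharide, rose by 0.44 in Ctrl (FDR 0.0161), 1.01 in HS (FDR 1.06e-05) and 1.18 in HS+REC (FDR 4.72e-07), and IRAK1, a kinase downstream of it, fell by 0.56 in Ctrl (FDR 1.78e-06), 0.71 in HS (FDR 4.89e-08) and 0.68 in HS+REC (FDR 8.68e-08). TLR4 had few counts, from 40 in HS scramble to 147 in HS+REC siLonp1. The median log2 difference of the list lay between -0.06 and 0.12 in the 3 conditions. For the interaction with HS 0 of the 37 were higher (beside 0.475% of all genes) and 2 lower (TRAF2 and TNFRSF1B, 5.41%, beside 1.39%), of which TRAF2 lost its call in 10 of 18 refits, with the replicate block among them. For that with HS+REC 0 were higher (beside 0.686%) and 0 lower (beside 0.896%).

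A list of 40 other known targets had 22 tested, and the others did not pass the filter on low counts. With HS in scramble 12 rose (54.5%, beside 18.6% of all genes) and 1 fell (4.55%, beside 17.3%), with a median of 0.24 log2 units. With HS in siLonp1 10 rose (45.5%, beside 20.2%) and 4 fell (18.2%, beside 22.1%), with a median of 0.21. CCL20, a chemokine of lymphocytes and dendritic cells, rose by 2.18 in scramble (FDR 9.76e-11) and 2.39 in siLonp1 (FDR 3.66e-12). GADD45B, a stress gene that acts on MAP kinase signalling, rose by 1.69 (FDR 4.76e-15) and 1.47 (FDR 5.14e-14), and the kinase gene NUAK2 by 1.06 (FDR 2.97e-10) and 0.58 (FDR 2.12e-06). In HS+REC 7 rose (31.8%, beside 21.8%) and 3 fell (13.6%, beside 20.5%) in scramble, and 9 rose (40.9%, beside 24.6%) and 6 fell (27.3%, beside 26.6%) in siLonp1. CCL20 was still raised, by 2.68 (FDR 1.09e-12) and 2.46 (FDR 1.37e-12), the cytokine gene IL32 was raised by 1.68 (FDR 1.4e-05) and 1.37 (FDR 0.000215), and PLAU, the gene of urokinase, was lower by 1.56 (FDR 1e-12) and 1.39 (FDR 7.11e-13). IL32 had 31 to 42 counts in Ctrl scramble and 19 to 49 in Ctrl siLonp1. In HS+REC it had 89 to 136 in scramble and 72 to 110 in siLonp1. Its Ctrl means were below 1 CPM (0.835 and 0.837), so it passed the filter largely through the heated groups. Its rise is therefore a description, though it is counted among the targets that rose. Between HS and HS+REC 1 rose (4.55%, beside 14.2%) and 8 fell (36.4%, beside 12.7%) in scramble, and 2 rose (9.09%, beside 16.3%) and 8 fell (36.4%, beside 15.6%) in siLonp1, with medians of -0.15 and -0.16.

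With siLonp1, 10 of the 22 targets rose (45.5%, beside 26.3% of all genes) and 2 fell (9.09%, beside 22.9%) in Ctrl, with a median of 0.22. In HS 10 rose (45.5%, beside 28.1%) and 5 fell (22.7%, beside 26.7%), with a median of 0.07, and in HS+REC 11 rose (50%, beside 26.8%) and 5 fell (22.7%, beside 27.3%), with a median of 0.18. The medians over all genes were 0.01, 0.00 and 0.00. PLAU rose by 1.49 (FDR 7.36e-13), 1.66 (FDR 2.33e-13) and 1.66 (FDR 6.63e-13). CXCL1, a neutrophil chemokine like CXCL8, rose by 1.07 in Ctrl (FDR 9.89e-08), 0.87 in HS (FDR 4.81e-07) and 1.07 in HS+REC (FDR 1.42e-07). Its relative CXCL3 (0.68 to 1.01), TNFAIP2 (0.96 to 1.04) and the cytokine gene LIF (0.82 to 0.95) also rose in all 3 conditions, with the highest FDR at 5.22e-06. For the interaction with HS 0 of the 22 were higher (beside 0.475%) and 2 lower (IRF1 and NUAK2, 9.09%, beside 1.39%), of which NUAK2 lost its call in 7 of 18 refits. For that with HS+REC 0 were higher (beside 0.686%) and 1 lower (IRF1, 4.55%, beside 0.896%), which lost its call in 9 of 18. The members of this list were not picked for how they moved, but earlier results of these data were known when it was written.

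**Figure D4:**
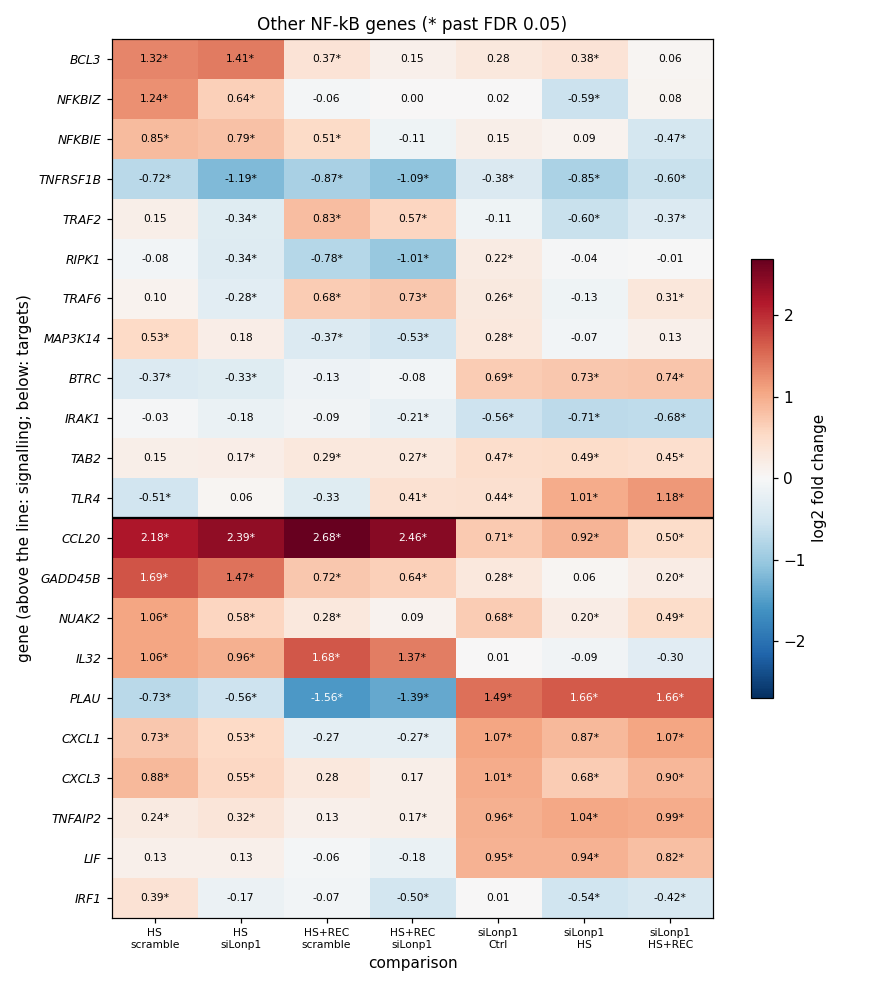
Log2 fold changes (colour scale and printed values) of the other NF-kB genes named by rule, signalling genes above the line and targets below it, in the HS and HS+REC comparisons of each arm and the siLonp1 comparisons of each condition, with an asterisk past an FDR of 0.05. CCL20 was raised in all 4 heat comparisons (2.18 to 2.68), PLAU was raised with siLonp1 in all 3 conditions (1.49 to 1.66), and BCL3 was raised mostly in HS (1.32 and 1.41).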

How the data were processed

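RNAseq of 18 SW620 libraries was used. The deposited values are raw read counts per gene symbol, which the authors made by aligning paired-end reads of stranded mRNA libraries to hg38 with STAR 2.7.3a and counting on UCSC genes with featureCounts, with R 3.6.3 and edgeR named in the submitters' processing notes. The strand setting, the treatment of shared reads and the annotation release are not given in the sources used here. Each column was matched to its sample by name, and 0 columns belonged to other samples. Totals were 30815860 to 47279297 counts. Replicates differed by more than counting error (chi-square per degree of freedom 3.48 to 25.8), so none was counted as a duplicate.

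Genes above 1 CPM in at least 3 libraries were kept. TMM factors and edgeR 4.0.16 quasi-likelihood tests (R 4.3.3, prior count 0.125) were run in 1 model of the 6 groups, and FDR is the Benjamini-Hochberg adjusted p over all 12832 genes, with a limit of 0.05. The SE is the absolute log2 fold change divided by the root of F, and 95% intervals use the t quantile at the test's degrees of freedom. Named are the 10 genes, LONP1, up to 3 genes per list and comparison with the largest change past the limit and a mean of at least 1 CPM, and the 3 genes closest in profile to UBD and to CXCR4 (prior count 2). The members, lists and tests were chosen with earlier results of these data known. UBD and CXCR4 are described without tests in every comparison, and counts of members cover the other 8 genes. As alternatives, scaling by RLE or by library size alone, no filter, DESeq2 1.42.0, a replicate block, an FDR of 0.01, a fold change above 2, only the groups compared, and each library left out in turn were tried. For the lists they were added after seeing the data. The tests were tried on simulated data. The values of 1 list gene are not reported here.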

Additional observations from a re-analysis of the deposited data

Results flagged for a closer look

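The siLonp1 difference of UBD changed direction between conditions. In Ctrl and in HS every siLonp1 library was above every scramble library, and in HS+REC every siLonp1 library was below. The log2 difference in HS+REC minus that in Ctrl was -1.60, and minus that in HS it was -1.95. Neither difference was tested, because the gene was chosen on it.

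Among the other NF-kB genes, the siLonp1 difference depended on heat in 5 results of edgeR's quasi-likelihood test of the interaction with Benjamini-Hochberg adjustment, over lists of 37 signalling genes and 22 other targets tested. Over all genes 0.475% were higher and 1.39% lower for HS, and 0.686% and 0.896% for HS+REC. For HS they were TRAF2 (-0.49, SE 0.12, FDR 0.0376), TNFRSF1B (-0.47, SE 0.09, FDR 0.00938), IRF1 (-0.56, SE 0.10, FDR 0.0031) and NUAK2 (-0.48, SE 0.11, FDR 0.026). For HS+REC it was IRF1 (-0.43, SE 0.10, FDR 0.0228). The values of TNFRSF1B and of IRF1 for HS kept their call in all 18 refits. That of TRAF2 lost it in 10 of 18, that of NUAK2 in 7 and that of IRF1 for HS+REC in 9. All losses of NUAK2 came with 1 library left out (replicate 1, 2 or 3 of Ctrl scramble, 1 of Ctrl siLonp1, 1 or 2 of HS scramble, and 1 of HS siLonp1). TRAF2 lost its call under the replicate block and in 9 of the 12 fits with 1 library left out, and IRF1 for HS+REC lost it with only the groups compared and in 8 of 12. Their values over those fits lay between -0.57 and -0.43 for TRAF2, -0.54 and -0.39 for NUAK2, and -0.50 and -0.39 for IRF1.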

How the results depend on the processing

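Of 41 changes of the 8 NF-kB targets past the FDR limit, 33 kept it in all refits with another scaling, filter, tool, block or set of libraries, 36 of 492 such refits lost it and 0 reversed. A stricter limit removed more: asking also for a fold change above 2 left 0 genes for the HS effect in scramble, 0 for HS+REC against HS in either arm, and 1 (CXCL8) for HS in siLonp1, for HS+REC in either arm, and with siLonp1 for Ctrl, HS and HS+REC. An FDR of at most 0.01 left 2 for HS+REC against HS in scramble. With each library left out in turn, the number of members past the limit was 4 to 5 and 3 to 4 for HS in scramble and siLonp1, 3 to 4 and 5 to 6 for HS+REC, 2 to 6 and 5 to 6 for HS+REC against HS, 4 to 4, 5 to 5 and 3 to 5 for siLonp1 in Ctrl, HS and HS+REC, and 0 for both interactions. In those fits an arm kept at least 2 libraries. Causes of lost calls were not tested. Without scaling factors the median of all genes moved by at most 0.097 on the log2 scale. Of 104 changes of list genes named by rule, 90 kept their call in all such refits and 0 reversed, and those lost beside the interactions included IL32 and ITCH in HS siLonp1, NLRC5 in HS scramble, IRF9, GRK6 and ITCH in HS+REC scramble, MIF in HS+REC siLonp1, GRK6 for HS+REC against HS in siLonp1, IRF9 with siLonp1 in HS, and PSMB9 with siLonp1 in HS+REC. UBD and CXCR4 had few counts, at 13 to 134 and 25 to 222, and the part of depth in the precision of their values was not tested.

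The replicate numbers did not pair the libraries: the correlation of same-numbered libraries' deviations from their group means ran from -0.38 to 0.46 (median -0.02), and 6 of 18 libraries were closest to their own number. With the replicate number as a block, 4 and 3 members passed for HS in scramble and siLonp1, 3 and 6 for HS+REC, 4 and 5 for HS+REC against HS, 4, 5 and 4 for siLonp1 in Ctrl, HS and HS+REC, and 0 for both interactions.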

Other observations

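Around UBD, a list of 20 genes of FAT10 conjugation, the immunoproteasome and antigen processing had 20 tested. With HS 0 rose (beside 18.6% of all genes) and 5 fell (25%, beside 17.3%) in scramble, and 0 rose (beside 20.2%) and 4 fell (20%, beside 22.1%) in siLonp1. With HS+REC 1 rose (5%, beside 21.8%) and 5 fell (25%, beside 20.5%) in scramble, and 2 rose (10%, beside 24.6%) and 4 fell (20%, beside 26.6%) in siLonp1. NLRC5, the activator of MHC class I genes, fell in siLonp1 by 1.16 on the log2 scale with HS (SE 0.16, FDR 1.75e-06) and by 1.28 with HS+REC (SE 0.16, FDR 3.51e-07), and in scramble by 0.40 (FDR 0.0268, lost in 5 of 12 refits, without replicate 1 or 2 of Ctrl scramble or replicate 1, 2 or 3 of HS scramble) and 0.52 (FDR 0.00382). TAPBP, the gene of tapasin, which helps load peptides onto MHC class I, fell with HS by 0.49 in scramble (FDR 9.31e-06) and 0.59 in siLonp1 (FDR 3.82e-07), and in HS+REC against Ctrl by 0.60 (FDR 3.11e-07) and 0.66 (FDR 4.38e-08), with its calls kept in all 12 refits of each. UBE2Z, the gene of the E2 enzyme that carries FAT10, fell with HS by 0.34 in scramble (FDR 2.09e-05) and 0.41 in siLonp1 (FDR 1.09e-06), and rose again between HS and HS+REC by 0.29 (FDR 0.00019) and 0.39 (FDR 3.4e-06). With siLonp1, 4 of the 20 rose (20%, beside 26.3%) and 4 fell (20%, beside 22.9%) in Ctrl, 6 rose (30%, beside 28.1%) and 2 fell (10%, beside 26.7%) in HS, and 3 rose (15%, beside 26.8%) and 4 fell (20%, beside 27.3%) in HS+REC. PSMB10, an immunoproteasome subunit, fell by 0.58 in Ctrl (FDR 8.4e-05), 0.40 in HS (FDR 0.00235) and 0.50 in HS+REC (FDR 0.000328), and NLRC5 by 0.99 in HS (FDR 1.53e-05) and 0.99 in HS+REC (FDR 1.67e-05). In Ctrl the means of NLRC5 were closer, at 4.04 CPM in scramble and 3.44 CPM in siLonp1. NLRC5 had few counts, from 47 in HS+REC siLonp1 to 205 in Ctrl scramble. For either interaction 0 of the 20 passed, beside 0.475% of all genes upward and 1.39% downward for HS and 0.686% and 0.896% for HS+REC. The list's median log2 change lay between -0.08 and 0.08 over all 11 comparisons.

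Around CXCR4, 18 genes of chemokine receptors, their ligands and their regulators were listed, 17 were in the table and 5 were tested. With siLonp1, 3 of the 5 fell in each condition (60%, beside 22.9%, 26.7% and 27.3% of all genes), and 1 rose in Ctrl and in HS+REC each (20%, beside 26.3% and 26.8%), but 0 in HS (beside 28.1%). ARRB2, the gene of an arrestin that ends receptor signalling, fell by 0.35 in Ctrl (FDR 0.000682), 0.50 in HS (FDR 1.02e-05) and 0.55 in HS+REC (FDR 2.44e-06). ARRB1, the other arrestin gene, rose in HS+REC against Ctrl by 0.76 in scramble (FDR 2.91e-09) and 0.90 in siLonp1 (FDR 1.62e-10). With HS 0 rose and 0 fell in scramble (beside 18.6% and 17.3%), and 0 rose and 1 fell in siLonp1 (beside 20.2% and 22.1%). The fall was that of ITCH, which lost its call in 5 of 12 refits (without replicate 2 or 3 of Ctrl siLonp1, or any of the 3 of HS siLonp1). In HS+REC against Ctrl 1 (ARRB1) rose and 2 (GRK6 and ITCH) fell in scramble (beside 21.8% and 20.5%), and 2 (ARRB1 and MIF) rose and 2 fell in siLonp1 (beside 24.6% and 26.6%). In scramble GRK6 lost its call in 3 of 12 refits (without replicate 2 or 3 of Ctrl scramble, or 2 of HS+REC scramble) and ITCH in 5 (without any of the 3 of Ctrl scramble, without replicate 3 of HS+REC scramble, and with only the groups compared). MIF in siLonp1 lost it in 5 (by library size only, by DESeq2, and without replicate 1 or 2 of Ctrl siLonp1, or 1 of HS+REC siLonp1). The median of the 5 was between -0.27 and -0.24 with siLonp1 in the 3 conditions.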
